A study of Vitis vinifera with 3 samples.

Results

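Regions of the grapevine genome outside gene models that carried more CG methylation at véraison or at maturity than at first growth were examined in berries of the cultivar Fujiminori. Bisulfite sequencing, which tells methylated from unmethylated cytosines, had been done on 1 library each of véraison berries (65 days after flowering), mature berries (90 days) and first growth berries (40 days), with no treatment and no replicates. The labels give a pooling of berries for RNA only, so how many berries stand behind each DNA library is unknown. The members were the rows of the 2 CG tables against first growth that lie on the 19 numbered chromosomes, have no gene model in the gene column and have a higher average level in the later library. There were 1180 such rows, 553 at véraison and 627 at maturity, of 9296 CG regions on these chromosomes in the 2 tables and 377997 regions in all 9 tables of the series. The members were thus chosen by the CG levels of the 2 libraries compared, so levels and gains are described without a test. A fruit holds several tissues, and a shift in the share of cells of each kind cannot be told apart from a change within cells.

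In plants, CG methylation is copied to the new strand after DNA replication by a maintenance methyltransferase, as shown in Arabidopsis. In Arabidopsis, CHG methylation (H is A, C or T) is kept by chromomethylases that bind methylated histones, and CHH methylation is set anew, in part under the guidance of small RNAs. Outside genes, dense methylation in all 3 contexts is typical of transposons and repeats. Removal of methylation by DEMETER-like DNA glycosylases accompanies ripening in tomato fruit. Positions are given as chromosome:start-end as listed, on a build not given in the sources used here. No genome was used, so the bases and the repeats under the regions were not analysed here.

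The gene column needs a qualification. In the 9 tables, all 48332 regions on numbered chromosomes with a named gene model ended inside that model, whereas 47244 of them also started in it. A region that starts in a model and runs past its right-hand end is therefore listed without one. This applied to 29 of the 553 véraison members (5.24%) and 26 of the 627 mature members (4.15%), each of which overlapped a model named elsewhere in the tables. Leaving them out kept the median gain at 26 percentage points in both comparisons. Since models were known only where some region of the 9 tables fell in them, other members may cross models that are not named.

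The tables were also limited in fold. In all 377997 rows the higher level was at least 2-fold the lower one once rounding to whole points was allowed for, with 0 exceptions, and the lower level was never above 50%. A place already over 50% methylated at first growth could not be listed as a gain, and gains that start higher had to be larger in points. The members lay close to this limit, as did gains inside gene models. Among members above 0% at first growth, the median ratio was 2.22 at véraison and 2.22 at maturity. Less than 2.5-fold was listed for 337 of the 553 véraison members (60.9%) and 386 of the 627 mature members (61.6%). Gains inside gene models had median ratios of 2.30 at véraison and 2.26 at maturity, with 54.2 and 57.7% listed at less than 2.5-fold.

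The comparison of véraison with first growth asks where CG methylation was higher at the onset of ripening. Gains made up 553 of 3189 CG regions outside gene models (17.3%, exact Clopper-Pearson 95% interval 16.04 to 18.7%, counting error over regions only), where 18.8% of all CG regions on numbered chromosomes were higher at véraison. Their median CG level was 45% at véraison (quartiles 25 and 76%), against 18% at first growth (quartiles 9 and 32%). The median gain was 26 percentage points (quartiles 15 and 42, range 3 to 100). Of the members, 73 reached 90% or more at véraison and 40 were listed at 100%, whereas 104 stayed at 20% or less. At first growth, 44 were listed at 0%.

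Gains of maturity over first growth had nearly the same spread of levels. They made up 627 of 3387 CG regions outside gene models (18.5%, interval 17.2 to 19.9%), where 20.7% of all CG regions were higher at maturity. The median level was 46% at maturity (quartiles 26 and 69%), against 18% at first growth (quartiles 8 and 29%), with a median gain of 26 points (quartiles 15 and 40, range 3 to 91). Of these, 70 reached 90% or more at maturity and 111 were at 20% or less. Both comparisons use the same first growth library, so the likeness of their starting levels is not independent.

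**Figure D1:**
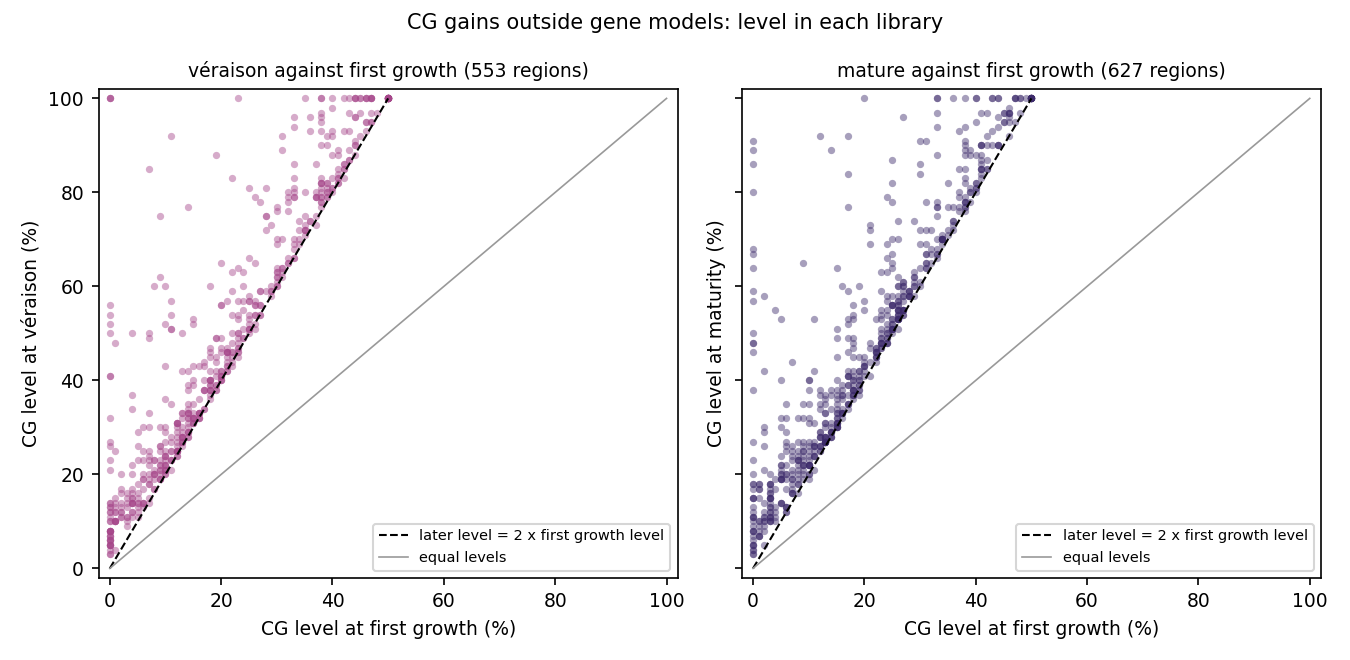
CG level of each region in the later library (vertical axis, %) against its level at first growth (horizontal axis, %), with véraison on the left (553 regions) and maturity on the right (627 regions). Points gather along the dashed line of a 2-fold ratio, and none lies above 50% at first growth.

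Low levels at first growth beside high levels later were uncommon: 8 véraison members (1.45%) and 13 mature members (2.07%) were at 5% or less at first growth and at 50% or more later. The 3 largest gains at véraison were listed at 100% at véraison, against 0% at first growth. They lay at chr3:17143924-17144137, at chr9:14503845-14503934 and at chr15:5150372-5150648. Their p-values in the authors' deposited table were 5.9538e-06, 8.59993e-06 and 0.000124875 in that order. The next largest was at chr9:10337906-10338049, with 92% at véraison and 11% at first growth, and the fifth was at chr14:2276238-2276434, with 85% and 7%.

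At maturity the largest gain was at chr9:22818425-22818677, with 91% at maturity and 0% at first growth. It was followed by chr16:21507188-21507311 (89% and 0%), chr5:13089384-13089492 (86% and 0%), chr12:16830816-16830937 (92% and 12%) and chr8:1627067-1627185 (80% and 0%). These 5 regions were 109 to 253 bp long. How many reads lie behind these levels is unknown.

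The regions with the smallest p in the authors' deposited table were other places, with smaller gains. At véraison they were led by chr3:8810563-8810883, with 88% at véraison and 44% at first growth (p = 4.65808e-20 in the authors' deposited table). Next came chr2:11720062-11720708, which crosses the end of a gene model, with 54% at véraison and 27% at first growth, and chr19:17979007-17979749, with 52% and 25%. The remaining ones were chr8:16731389-16732092, which also crosses a model, with 16% at véraison and 4% at first growth, and chr7:5721639-5721900, with 82% and 41%. At maturity the smallest p was at chr9:19139582-19139942, with 59% at maturity and 17% at first growth (p = 1.02727e-22 in the authors' deposited table). It was followed by chr1:14124494-14124612, with 81% at maturity and 40% at first growth, chr17:7691946-7692407, which crosses a model, with 37% and 14%, chr4:1591750-1592164, with 74% and 36%, and chr15:20164765-20165333, with 17% and 1%. These p-values compare the reads of a single pair of libraries, not the stages.

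Large gains sat in short regions. At véraison the median length was 299.5 bp among the 150 members that gained up to 15 points, 243.5 bp among the 174 that gained 16 to 30, 191.5 bp among the 170 that gained 31 to 50 and 165 bp among the 59 that gained more. At maturity the same classes had medians of 321.5, 267, 195 and 170 bp. The classes also differed in starting level, with median first growth levels of 5, 18, 35 and 38% at véraison. At maturity these were 6, 17, 33 and 33%, and length was not compared at a fixed starting level. The 3 longest members of each comparison gained 4 to 24 points. At chr5:21580465-21581365 (901 bp), the level was 27% at véraison and 12% at first growth, and at chr18:27862188-27863205 (1018 bp) it was 41% at maturity and 17% at first growth. At the limit of the rule, the smallest rise was 3 points, as at chr15:19559862-19560253 with 3% at véraison and 0% at first growth. The smallest falls were of 2 points at véraison and 1 point at maturity.

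Set beside other CG regions of the same tables, the gains outside gene models ended high. They were shorter than the losses, as were gains inside gene models. Regions of a single pair of libraries are not replicates, so these differences carry no test. Gains outside gene models had a median length of 226 bp at véraison, against 389.5 bp for losses outside gene models and 258 bp for gains inside them. At maturity these medians were 237, 400 and 256 bp. Gains inside gene models were smaller in points, with a median of 16 points at véraison and 16 points at maturity. They also started lower, with median first growth levels of 11 and 12%, against 18 and 18% outside. Under the 2-fold limit the size in points depends on the starting level, and levels were not compared at a fixed start. Levels of 50% or more at véraison were found in 45.0% of the gains outside gene models (interval 40.8 to 49.3%), against 20.5% of those inside (15.98 to 25.6%). At maturity these shares were 45.5% (41.5 to 49.4%) and 18.7% (14.9 to 23.1%). The members together covered 144.697 kb at véraison and 173.851 kb at maturity, against 1119.91 kb and 1190.52 kb for the losses outside gene models.

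CHG methylation, read on other cytosines of the same libraries, was higher at about 1 in 5 members. At véraison, 110 of 553 members (19.9%, exact interval 16.6 to 23.5%) overlapped a CHG region listed as higher at véraison, and 1 overlapped a lower one. Any CHG region was overlapped by 111 members, so 110 of these 111 overlapped a higher one. Among all listed CHG regions, 40.5% were higher at véraison, a share of listed regions and not of members. Gains inside gene models were similar, with 47 of 288 (16.3%, 12.2 to 21.1%) overlapping a higher CHG region. Of the losses outside gene models, 4 of 2636 (0.152%) overlapped a higher CHG region and 352 (13.4%) a lower one. At members with a CHG row the median CHG level was 42% at véraison, against 14% at first growth, beside median CG levels of 42% and 18%. At maturity, 127 of 627 members (20.3%, 17.2 to 23.6%) overlapped a higher CHG region and 7 a lower one. Any CHG region was overlapped by 132 members, and among all listed CHG regions 39.8% were higher at maturity. Of the gains inside gene models, 63 of 369 (17.1%, 13.4 to 21.3%) overlapped a higher CHG region at maturity. A member without a CHG row is one where CHG was not listed, which does not show that CHG was alike. CHG regions were also subject to the 2-fold limit.

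Some places had alike levels in CG and CHG. At chr13:17425994-17426525, CG was 84% at maturity and 17% at first growth, and CHG in the overlapping region from 17426287 to 17426458 was 84% and 24%. At chr9:13637512-13637642, CG was 67% at maturity and 0% at first growth, and CHG from 13637572 to 13637713 was 71% and 0%. At véraison, CG at chr18:5713210-5713396 was 60% at véraison and 8% at first growth, and CHG from 5713184 to 5713400 was 64% and 11%. Elsewhere CHG changed more than CG, as at chr14:26646249-26646369, where CG was 100% at véraison and 46% at first growth and CHG was 90% and 7%. The single member with lower CHG at véraison, at chr7:5497538-5497848, touched its CHG region (5497224 to 5497553) at one edge only.

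The share with higher CHG did not follow the size of the CG gain in one direction. At véraison higher CHG overlapped 18.7% of the 150 members that gained up to 15 points (12.8 to 25.8%), 27.0% of the 174 that gained 16 to 30 (20.6 to 34.3%), 18.2% of the 170 that gained 31 to 50 (12.7 to 24.9%) and 6.78% of the 59 that gained more (1.88 to 16.5%). At maturity the shares of the same classes were 17.7% of 158 (12.1 to 24.6%), 19.9% of 221 (14.9 to 25.8%), 25.4% of 185 (19.3 to 32.3%) and 12.7% of 63 (5.65 to 23.5%). The highest share thus fell in different classes in the 2 comparisons, and the class of the largest gains had the lowest share in both. The intervals of the mature classes overlap one another. Length was not matched in these classes.

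CHH methylation, which was higher in the later library in 99.6% of all CHH regions at véraison and 99.4% at maturity, was rarely listed at the members. At véraison, 18 of 553 members (3.25%, 1.94 to 5.10%) overlapped a higher CHH region, against 452 of 2636 losses outside gene models (17.1%, 15.7 to 18.6%). At maturity, 28 of 627 members (4.47%, 2.99 to 6.39%) did so, against 406 of 2760 losses (14.7%, 13.4 to 16.1%). Gains inside gene models also had low shares, 7 of 288 (2.43%) at véraison and 6 of 369 (1.63%) at maturity. The losses were the longer regions. Among regions of 150 to 350 bp, a band set after the data were seen, the shares were 4.09% of 269 gains and 11.1% of 876 losses at véraison, and 4.23% of 284 gains and 9.47% of 919 losses at maturity.

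Counted per kb, higher CHH regions were below the chromosome mean within the members and in the nearest 500 bp, and above it from 501 to 5000 bp. At véraison there were 0.131 CHH midpoints per kb inside the members and 0.278 per kb within 500 bp on either side, against a mean of 0.407 per kb over the 19 chromosomes. From 501 to 1000 bp there were 0.495 per kb and from 20001 to 50000 bp 0.4005 per kb. Losses outside gene models held 0.390 per kb inside and 0.649 per kb within 500 bp, and gains inside gene models 0.0890 and 0.142 per kb. From 501 to 1000 bp the losses held 0.643 per kb and the gains inside gene models 0.253 per kb. At maturity these values were 0.545 and 0.241 per kb. At maturity the members held 0.167 per kb inside and 0.300 per kb within 500 bp, and 0.466 per kb from 501 to 1000 bp, against a chromosome mean of 0.337. The inside values of the members rest on 19 CHH midpoints at véraison and 29 at maturity. The number of CHH cytosines in the regions is unknown.

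For CHG the densities inside the members were above the chromosome mean. Higher CHG midpoints reached 0.746 per kb inside the véraison members and 0.817 per kb inside the mature members, against 0.00759 and 0.00796 per kb over the chromosomes. Within 500 bp there were 0.0524 and 0.0638 per kb, and from 501 to 1000 bp 0.0145 and 0.0271 per kb, so the density was highest in the CG regions themselves. Gains inside gene models held 0.547 per kb at véraison and 0.615 per kb at maturity.

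**Figure D2:**
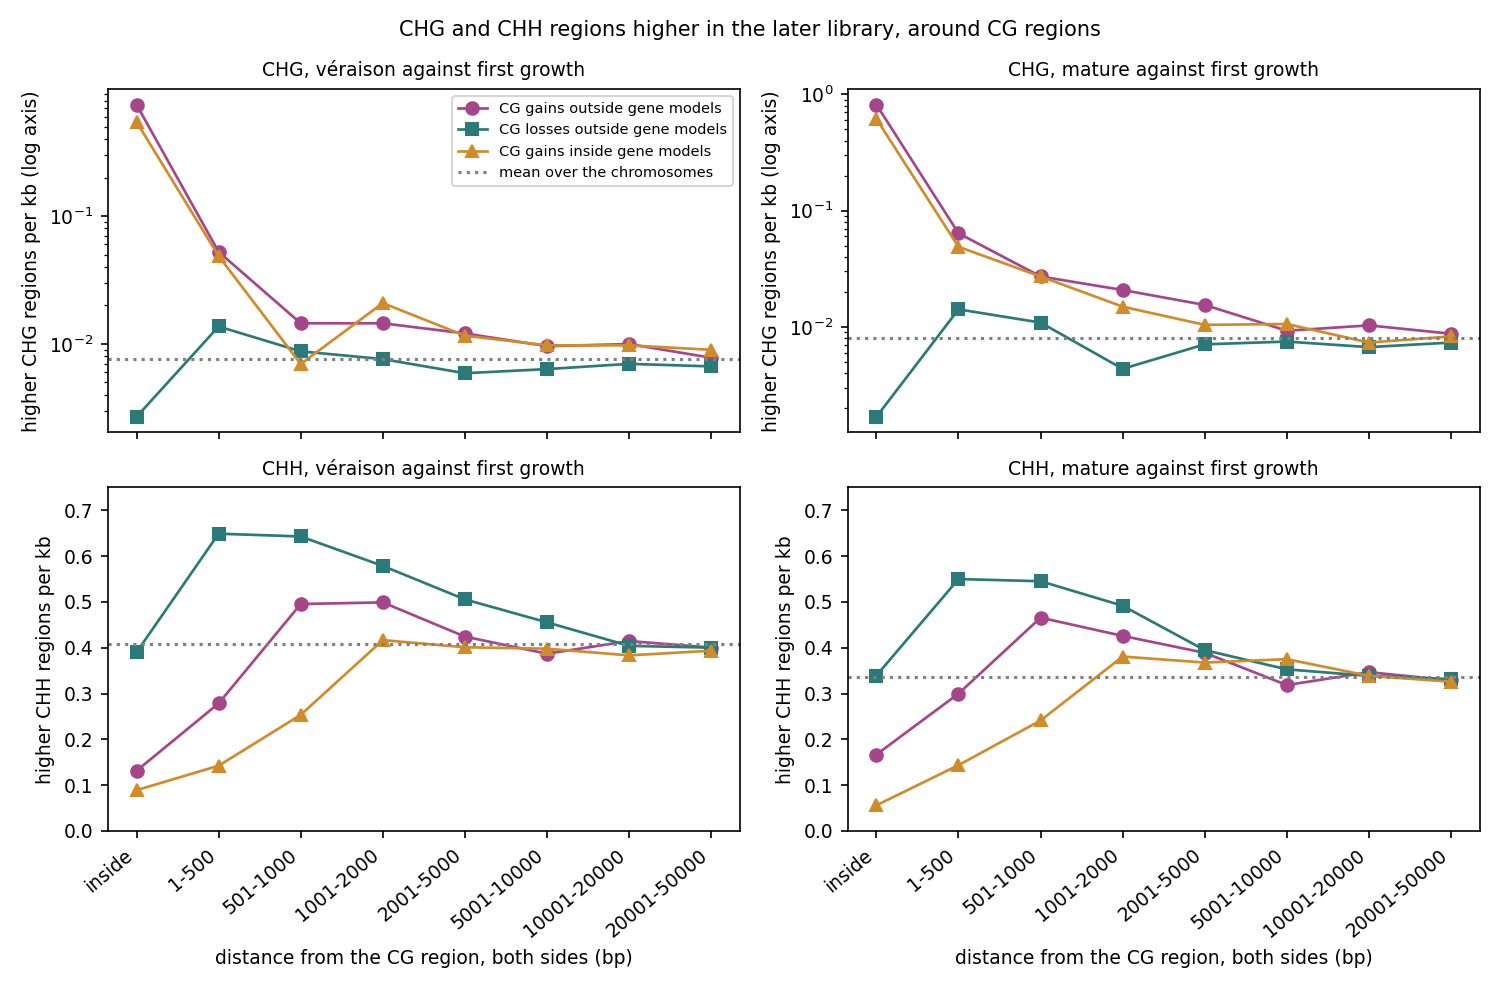
Midpoints of CHG regions (upper row, log axis) and CHH regions (lower row, linear axis) listed as higher in the later library, per kb, by distance in bp from CG gains outside gene models, CG losses outside gene models and CG gains inside gene models, with the mean over the chromosomes dotted. At véraison the gains outside gene models hold 0.746 higher CHG regions and 0.131 higher CHH regions per kb inside, and 0.0145 and 0.495 per kb from 501 to 1000 bp.

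Of the members that overlapped a higher CHH region, 4 of 18 at véraison and 10 of 28 at maturity also overlapped a higher CHG region. Over all members, 19.9% at véraison and 20.3% at maturity overlapped a higher CHG region. The largest CG gain at maturity with a CHH row was at chr3:17460304-17460662, where CG was 91% at maturity and 30% at first growth and CHH from 17460502 to 17460543 was 36% and 0%. At véraison the CG level of nearly the same place, from 17460326 to 17460647, was 75%, against 28% at first growth, and CHH from 17460489 to 17460572 was 55% and 4%. No CHG region was listed over either of these stretches. The 1 véraison member with a lower CHH region was at chr7:14706378-14706441, with CG at 100% at véraison and 50% at first growth and CHH at 0% and 47%.

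Members could be followed through all stages where the same start and end appeared in 2 CG tables. Levels of a library listed in both tables were equal in 48 of 48, 18 of 18 and 23 of 23 such regions. Any 2 of these tables share a library, so the sets are given as levels side by side and not as an overlap. In 48 regions higher than first growth in both later libraries, the medians were 18% for first growth, 48.5% for véraison and 48.5% for maturity. Mature and véraison levels differed by at most 5 points in 32 of them and by at most 19 points in all. By the smaller of the 2 gains, chr7:14344709-14344802 led, with 44% at first growth and 100% at both later stages. It was followed by chr18:27971827-27971964, with CG at 25% (first growth), 81% (véraison) and 87% (maturity). Among the 10 leading regions, chr15:5177447-5177634 had 30%, 76% and 84%, chr12:12909370-12909748 had 41%, 85% and 87%, and chr12:891662-891977 had 43%, 87% and 100% in the same order.

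In 18 regions the véraison library stood above the other two. Their medians were 7.5% for first growth, 22.5% for véraison and 4% for maturity, and mature and first growth levels were within 5 points in 15 of them. The 2-fold limit kept both of these levels well under the véraison level, so their likeness was in part set by the listing. In stage order, chr18:17735726-17736124 had 38%, 82% and 37%, and chr2:13551045-13551144 had 40%, 81% and 39%. Likewise chr19:2626134-2626407 had 25%, 66% and 16%. The region chr8:14978289-14978458 had 27%, 78% and 7%, and CHG there was 44% at véraison and 5% at first growth.

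In 23 regions the mature library stood above the other two, with medians of 14% for first growth, 13% for véraison and 35% for maturity. First growth and véraison were within 5 points in 18 of them, a likeness that the 2-fold limit likewise set in part. In stage order, chr16:21507188-21507311 had 0%, 0% and 89%. The next were chr13:17425994-17426525 with 17%, 17% and 84% and chr9:4517320-4517489 with 0%, 0% and 64%, both of which cross the end of a gene model. Véraison was below first growth in 9 of these 23 regions, as maturity was in 11 of the 18 above. In 1 region of each set that fall was itself listed against first growth. These were chr17:11132216-11132426, with 7% (first growth), 23% (véraison) and 0% (maturity), and chr6:14976887-14976993, with 8%, 0% and 23%.

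Stage and library cannot be told apart in these sets. Exact start and end select places whose calls were alike. When regions were paired by a reciprocal overlap of at least 80%, the medians were 18%, 46% and 47% in 93 pairs, 8%, 25% and 7% in 35 pairs and 13%, 13% and 37% in 57 pairs, at first growth, véraison and maturity.

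**Figure D3:**
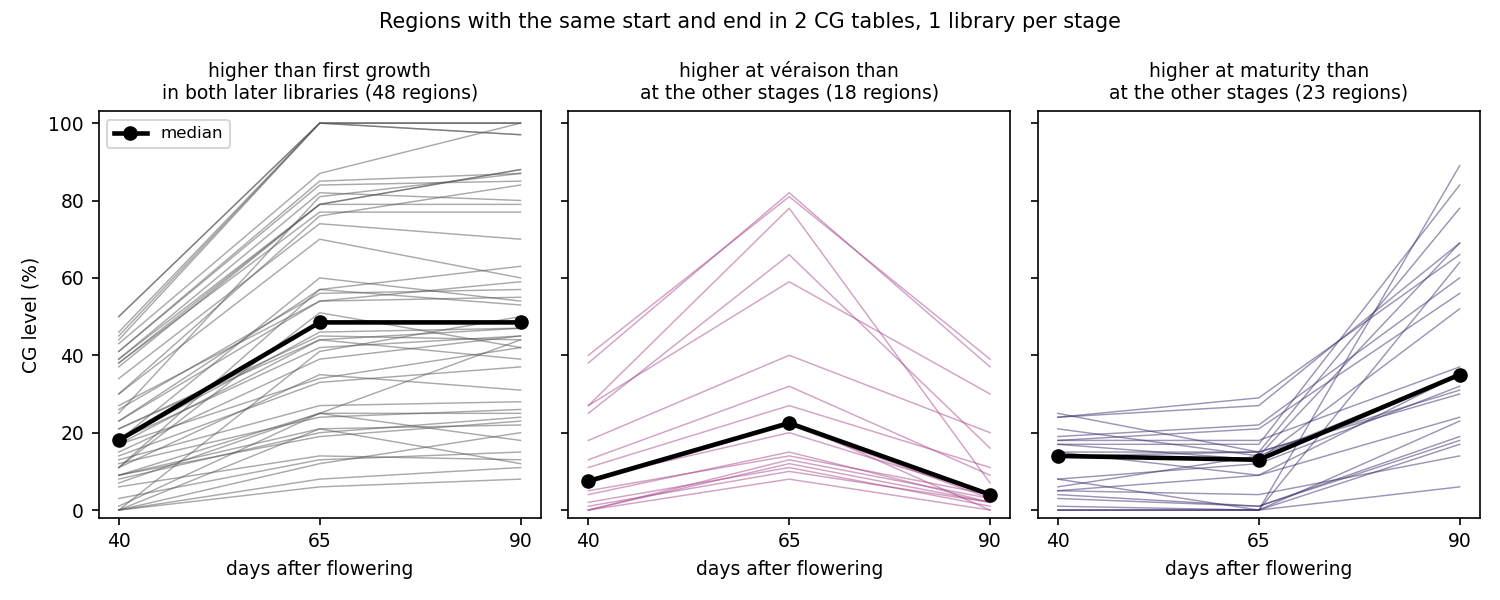
CG level (%) by days after flowering for regions with the same start and end in 2 CG tables, 1 line per region and the median in black. The medians are 18, 48.5 and 48.5% (left, 48 regions), 7.5, 22.5 and 4% (middle, 18 regions) and 14, 13 and 35% (right, 23 regions) at 40, 65 and 90 days.

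The median distance of members to a gene model named in the tables was 12.1 kb at véraison and 13.5 kb at maturity, against 8.33 and 8.72 kb for losses outside gene models. Of the members, 37.1% at véraison (33.0 to 41.2%) and 38.9% at maturity (35.1 to 42.9%) were more than 20 kb away, against 25.6% (23.9 to 27.3%) and 27.5% (25.8 to 29.2%) of the losses. Within 3 kb lay 24.2% of the véraison members (20.7 to 28.0%) and 22.3% of the mature ones (19.1 to 25.8%), including those that cross a model. For the losses these shares were 28.7 and 27.6%. Within 1 kb, with regions that cross a model counted, lay 14.3 and 12.8% of the members and 14.6 and 14.3% of the losses. Regions that cross a model were 5.24 and 4.15% of the members, but 3.34 and 2.54% of the losses. The shares within 1 kb are thus not those of regions beside a model alone. Gains near models were smaller, with medians of 19 points at véraison and 20 at maturity within 3 kb, against 33 and 28 points beyond 20 kb. The members within 3 kb again include those that cross a model. Members upstream and downstream of a model had medians of 17 and 23.5 points at véraison, and 23.5 and 24.5 at maturity. Starting levels, which bound the gain in points, were not matched here. Distances are to the 9490 models that some region of the series names, so the nearest gene may be closer.

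Within 3 kb, neither flank of the models prevailed in both comparisons. At véraison 47 members were upstream and 58 downstream of the nearest named model, and at maturity 68 were upstream and 46 downstream. More losses were upstream than downstream in both comparisons, 396 against 272 at véraison and 416 against 277 at maturity. Among members that do not cross a model, one at maturity lay 57 bp upstream of VIT_08s0056g01090.t01, at chr8:1627067-1627185, with 80% at maturity and 0% at first growth. Another lay 48 bp downstream of VIT_13s0067g01250.t01, at chr13:713899-714454, with 62% at maturity and 29% at first growth. At véraison 2 members within 3 kb of VIT_13s0067g01250.t01, between 714180 and 714382, gained 28 and 29 points. The files do not say what these genes encode.

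Members were found on all 19 chromosomes. Chromosome 15 had the highest density in both comparisons, 2.17 gains per Mb at véraison and 2.66 at maturity, against 1.298 and 1.471 over all chromosomes. Chromosome 13 followed with 1.68 and 2.09 per Mb. The lowest densities were 0.906 per Mb on chromosome 2 at véraison and 0.908 per Mb on chromosome 11 at maturity. Lengths were taken to the last listed base of each chromosome. Chromosome 15 was also the densest in losses, with 7.83 and 8.27 per Mb, whereas gains made up the largest share of the regions outside gene models on chromosome 13 at véraison (24.1%) and on chromosome 16 at maturity (25.3%).

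**Figure D4:**
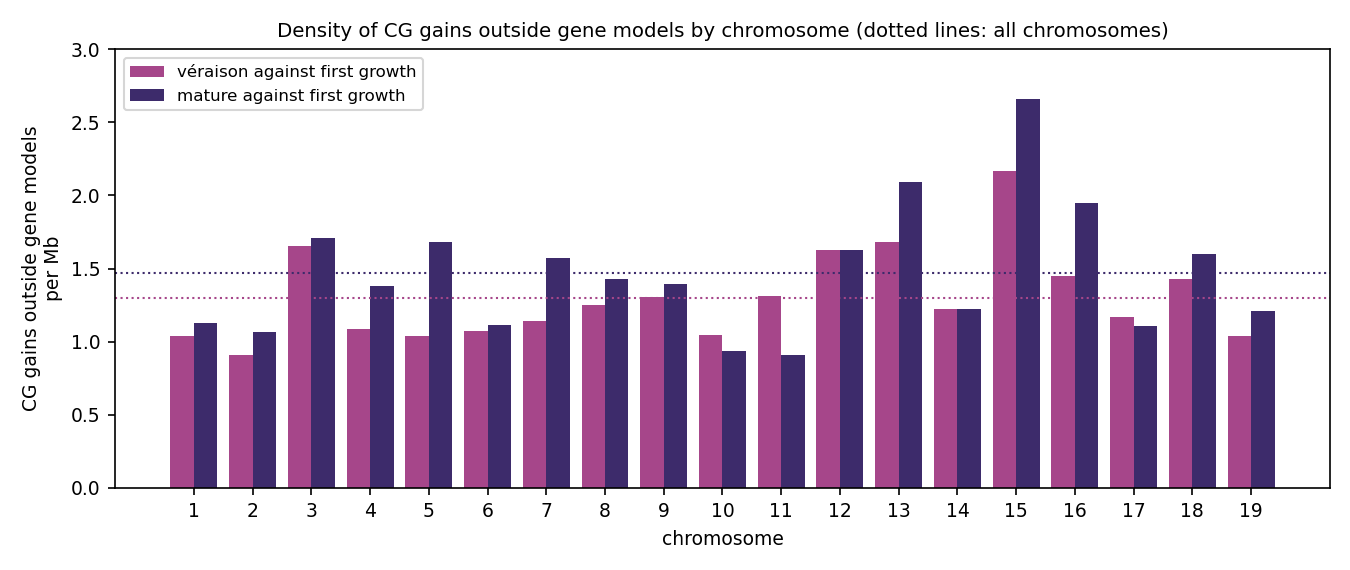
Number of CG gains outside gene models per Mb (vertical axis) on each of the 19 chromosomes (horizontal axis), for véraison and maturity against first growth, with the value over all chromosomes dotted. Chromosome 15 has the highest bars, 2.17 per Mb at véraison and 2.66 per Mb at maturity.

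Neighbours within 1 kb were counted at overall densities of 1.298 members per Mb at véraison and 1.471 at maturity, and spacing was not tested. At véraison 482 of 553 had no other member within 1 kb, 34 groups held 2 members and 1 group held 3. At maturity 531 of 627 stood alone, with 39 groups of 2 and 6 groups of 3. Because listed regions can overlap, 553 rows stood for 522 separate places at véraison and 627 for 587 at maturity. Such overlapping rows count as neighbours here, and 31 véraison and 40 mature members overlapped an earlier member. The densest window of 1 Mb held 8 members, at chr17:14190818-14681385 at maturity, with gains of 9 to 51 points. At véraison the densest windows held 7 members each, at chr15:5084757-5691806 (gains of 16 to 100 points) and at chr18:25381007-25708353 (gains of 14 to 51 points). A CG loss outside gene models lay within 1 kb of 26 véraison members (4.70%) and 28 mature members (4.47%). Over all chromosomes there were 6.19 such losses per Mb at véraison and 6.48 at maturity. Whether losses lay nearer to members than to other places was not tested.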

How the data were processed

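DNA methylation was measured by bisulfite sequencing in 3 libraries, 1 per stage. BSMAP 2.73 is named in the submitters' processing notes, while for the region caller, coverage filter, build and annotation the sources used here give nothing. The authors deposited average methylation levels as fractions from 0 to 1, rounded to 2 decimals. They are printed as percent. The authors' p-value column is called a chi-square statistic in its note, but its largest value in the CG tables is 0.0099669, and it was taken as an unadjusted p. No coverage is given, so the depth behind a level is unknown and no level has an interval.

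The members and lists were chosen with earlier results of these data known. Gains are the later library minus first growth. Stages were not tested against each other, since each has a single library. Shares of regions carry exact Clopper-Pearson 95% intervals, which cover counting error over regions only; neighbouring regions are not independent. Regions of other contexts were counted as overlapping at 1 bp or more. Distances were taken to the 9490 gene models named in the 9 tables. Of these, 0 matched the 29591 genes of the reference list, so no gene names were given. Lengths are end minus start plus 1, and whether starts count from 0 is not stated.

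Named regions followed rules of rank: per comparison the 5 largest gains, 5 smallest p and 3 longest regions, the 5 nearest to a named model, those leading in another context and those followed through the stages. The text gives fewer where they repeat, and named models are limited to 2 because they are known by identifier alone. Regions singled out in the three-stage sets or the contexts beyond those ranks were picked with their values in view. The overlap, distance and density functions were tested on simulated intervals with Python 3.11.15, pandas 2.3.3 and scipy 1.17.1.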

Additional observations from a re-analysis of the deposited data

How the results depend on the processing

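The planned and added alternatives gave 72 values. On the scale of the reported value, 46 stayed within its 95% interval and 24 moved outside it, and 2 log2 ratios are on another scale, with véraison first and maturity second throughout. Among regions of at least the median length, gains made up 8.13 and 10.2% of CG regions outside gene models, the median gain was 16 and 19 points, 25.2 and 27.2% overlapped a higher CHG region, and 30.4 and 26.6% lay within 3 kb of a named model. With the p limit made 10 times stricter, the share of gains was 14.9 and 16.2% and the CHG overlap 24.5 and 24.2%. Keeping the regions whose absolute difference reached the median, the median gain was 40 and 36 points by construction, and 18.2 and 18.2% lay within 3 kb of a named model. Counting CHH midpoints within 500 bp in place of overlap gave 21.7 and 22.3%, a wider window by construction. The share near models was 14.3 and 12.8% at 1 kb, 7.78 and 7.50% with models of the CG tables alone, and 20.04 and 18.97% without regions that cross a model, an alternative chosen after seeing the data, as were the length band and counting overlapping regions once. The median log2 ratio with a pseudocount of 0.01 was 1.14 in both, in the same direction. The causes of the other shifts were not tested. No paired analysis was possible because each stage has 1 library. Depth is unknown, which limits all levels near 0 or 100%.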

Other observations

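In the mitochondrion, 2 of 7 CG regions of véraison against first growth were higher at véraison, both without a gene model, and 0 of 6 CG regions of maturity against first growth were higher at maturity. The CG tables against first growth list 0 chloroplast regions.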
